A study of Mus musculus with 14 samples.

Results

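Of the 14171 CRTC2 peaks called in 3T3-L1 cells that received FSK together with TNFα, 2268 overlapped a CRTC2 peak of cells given FSK alone and overlapped none of untreated cells or of cells given TNFα alone. These forskolin-only sites were 16.0% of the list. They were chosen by peak calls alone, so their CRTC2 tags and the absence of an overlapping control or TNFα peak describe the choice and are not a finding.

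3T3-L1 cells are mouse fibroblast-like cells that can be differentiated into adipocytes, and the samples are labelled as adipocyte. The study that made these libraries describes the cells as 3T3-L1 adipocytes, days into differentiation. Cells were left without treatment or treated for 1 hour with forskolin (FSK, 10 µM), with TNFα, or with both, and chromatin was precipitated for CRTC2, NF-κB p65, or H3AcK27 (acetylation of lysine 27 of histone H3, found at active regulatory regions). Every one of the 12 target and treatment pairs had 1 library. Differences between treatments therefore lack a replicate check and carry no p-value, and intervals over sites cover counting error only. Peaks of the control and TNFα libraries were called against input from untreated cells and those of the FSK and FSK/TNFα libraries against input from FSK-treated cells. For CRTC2, p65, and H3AcK27 alike, treatment with forskolin and the input used for calling therefore cannot be told apart.

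FSK activates adenylyl cyclase and raises cAMP, which activates protein kinase A. The kinase phosphorylates CREB and inhibits the salt-inducible kinases, and their substrate CRTC2 then loses its phosphate, enters the nucleus, and acts as a coactivator of CREB at cAMP response elements (CREs). TNFα signals to NF-κB, of which p65 is a subunit, and fat cells meet both cAMP signals from sympathetic nerves and cytokines from immune cells. The study that made these libraries reports that TNFα, after a longer exposure, also lowered SIK2 and brought CRTC2 into the nucleus of 3T3-L1 adipocytes. Here the CRTC2 lists held 5188 peaks in control, 11749 with FSK, and 19527 with TNFα.

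Sequences at 10 forskolin-only sites are shown to make the CRE, the element that CREB binds, visible at strong sites. They were taken only from sites that held a CRE or an AP-1 sequence, so they do not show how common either is. With 1 site per gene, the first 7 are the strongest such sites of genes on the lists of cAMP targets or inflammatory genes, and the last 3 are among the strongest of any gene. All are on the plus strand of GRCm38 (mm10), read 5′ to 3′ from the RefSeq assembly. Capitals mark the short CRE TGACG or its reverse complement CGTCA, the full CRE TGACGTCA, and the AP-1 sites TGACTCA and TGAGTCA.
Nr4a1, chr15:101266793-101266822: gcccctctccatgCGTCAcggagcgcttaa
Per1, chr11:69097146-69097265: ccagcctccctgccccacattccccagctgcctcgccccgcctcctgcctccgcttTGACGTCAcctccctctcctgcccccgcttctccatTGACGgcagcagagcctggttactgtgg
Nr4a3, chr4:48043397-48043516: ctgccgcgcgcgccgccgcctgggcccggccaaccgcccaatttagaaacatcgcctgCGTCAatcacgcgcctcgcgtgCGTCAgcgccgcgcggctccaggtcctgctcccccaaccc
Pde10a, chr17:8525004-8525123: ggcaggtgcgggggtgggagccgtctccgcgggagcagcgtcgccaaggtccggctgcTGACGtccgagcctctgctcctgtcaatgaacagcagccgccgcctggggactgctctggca
Sik1, chr17:31855980-31856099: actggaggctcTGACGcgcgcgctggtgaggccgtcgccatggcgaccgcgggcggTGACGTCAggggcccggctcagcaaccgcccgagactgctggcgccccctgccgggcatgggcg
Socs3, chr11:117963386-117963505: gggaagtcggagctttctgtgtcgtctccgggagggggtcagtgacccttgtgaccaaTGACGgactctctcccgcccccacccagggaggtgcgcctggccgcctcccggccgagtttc
Lif, chr11:4308730-4308849: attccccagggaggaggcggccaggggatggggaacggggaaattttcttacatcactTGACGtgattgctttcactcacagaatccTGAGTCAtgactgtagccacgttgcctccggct
Vdr, chr15:97914408-97914527: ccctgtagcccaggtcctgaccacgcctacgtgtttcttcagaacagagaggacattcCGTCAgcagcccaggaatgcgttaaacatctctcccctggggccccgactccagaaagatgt
Sfta2, chr17:35590656-35590775: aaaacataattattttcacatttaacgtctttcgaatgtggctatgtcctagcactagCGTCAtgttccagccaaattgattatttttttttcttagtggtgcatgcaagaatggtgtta
Atp5d, chr10:80141336-80141455: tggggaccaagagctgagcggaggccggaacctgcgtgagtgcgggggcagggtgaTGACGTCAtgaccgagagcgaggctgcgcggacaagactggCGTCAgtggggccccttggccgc

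In the stretches shown, Nr4a1, Pde10a, Socs3, Vdr, and Sfta2 had 1 short CRE and Nr4a3 had 2. Per1, Sik1, and Atp5d carried the full palindrome and a further short CRE. An AP-1 site stood beside the CRE at Lif. The Nr4a1 stretch is limited to 30 bases because an annotated UTR lies beside it.

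CRTC2 tags at the sites were similar with FSK and with FSK/TNFα. Tags are normalized by the authors to 10000000 per library. The lowest value of the 2268 sites was 4.87 with FSK and 4.09 with FSK/TNFα, the median 14 and 13.5, and the highest 606 and 673. The 4 highest sites, near Otogl, lay in bins of high input, and outside such bins the highest values were 172.8 with FSK (near Trim32) and 165.1 with FSK/TNFα (near Tnfsf15). The log2 ratio of FSK/TNFα to FSK had a median of -0.04 with quartiles of -0.42 and 0.36. The ratio was above 0 at 1052 sites and below 0 at 1199, and 93 sites had at least 2-fold more and 106 at least 2-fold fewer tags with FSK/TNFα. Across the 2268 sites, Pearson's r of the log2 tags was 0.68, and it was 0.65 over the 2261 sites outside bins of high input; the points share both libraries and the local input.

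**Figure D1:**
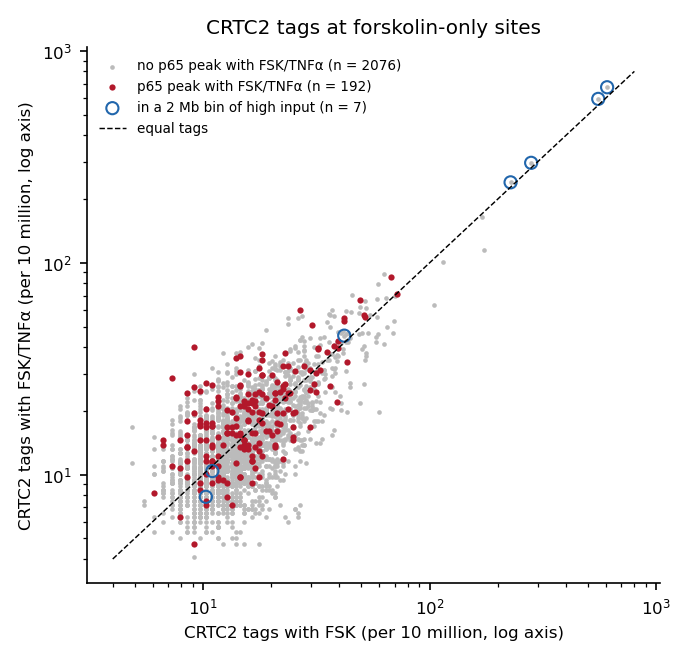
Normalized CRTC2 tags at each of the 2268 forskolin-only sites with FSK (horizontal, log axis) and with FSK/TNFα (vertical, log axis), with sites that overlap a p65 peak of the FSK/TNFα library in red and sites in bins of high input circled. The sites lie on both sides of the dashed line of equal tags, and 123 of the 192 red points lie above it.

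The rule removes a site for 1 bp of overlap, and many retained sites stood beside a peak of another library. At the inner edge, the site near Psmb9 had 12.6 tags with FSK/TNFα and 14.6 with FSK and directly adjoined a TNFα peak, and the site near Lhfpl2 (16 and 21.3 tags) shared 1 bp with its FSK peak. Just outside, a peak near Ring1 with 25.8 and 12.8 tags was left out for 1 bp shared with a TNFα peak, and a peak near Sgca with 13.2 tags adjoined an FSK peak without overlap. A control or TNFα peak lay within 1000 bp of 592 sites (26.1%) and within 100 bp of 234 (10.3%). The other 1676 sites had neither within 1000 bp.

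Calling thresholds differed between libraries. A score counts at most 1 tag per position, and the lowest score that passed was 8 in the control and TNFα libraries, 9 with FSK, and 10 with FSK/TNFα. Scaled to 10000000 tags these are 4.24, 3.02, 5.48, and 3.14. With FSK/TNFα, 1772 of the 2268 sites scored above the scaled control threshold. Every peak called in a forskolin library exceeds the scaled TNFα threshold by construction. Comparison with input removed further candidates, 7480 of 12884 in control and 9545 of 32176 with TNFα. Comparison with the local region removed 216 and 3104. A site without a listed peak therefore need not have scored below the threshold. Tags of the control and TNFα libraries at positions without a peak are not in these lists and were not analysed here.

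Forskolin-only sites lay mostly away from promoters. A promoter, taken as the 1000 bp before and 100 bp after a protein-coding start site, held the midpoint of 424 sites (18.7%, 95% Wilson interval 17.1 to 20.4) compared with 41.9% of all FSK/TNFα peaks. The share was 75.8% for the 2634 peaks also called with FSK and with TNFα but not in control, and 85.7% for the 1372 peaks called in all 4 libraries. It was 66.7% for the 1855 peaks shared only with TNFα and 14% for the 5588 peaks called with FSK/TNFα alone. Among forskolin-only sites, 744 (32.8%) lay in introns and 1033 (45.5%) were intergenic, while 23 lay in coding exons and 44 in UTRs. The median distance to a start site was 16474 bp, compared with 75.5 bp for the peaks shared with FSK and TNFα and 57 bp for those in all 4 libraries. Base composition moved with position: GC content in 200 bp had a median of 49% at forskolin-only sites and 65% at the peaks shared with FSK and TNFα. Of the 1676 sites with no other peak within 1000 bp, 6.8% were at promoters.

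**Figure D2:**
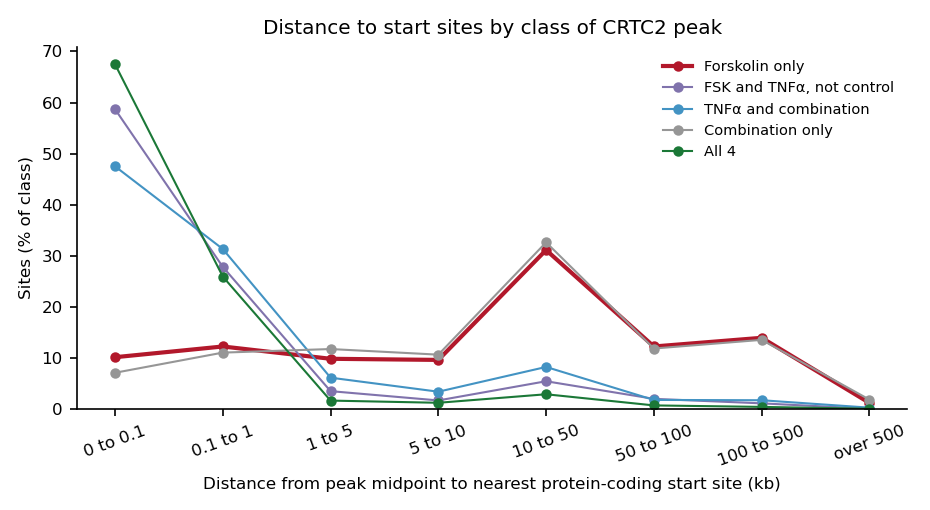
Percent of the sites of each class by distance from the peak midpoint to the nearest protein-coding start site, in kb. The forskolin-only line peaks at 31.1% between 10 and 50 kb, close to the 32.6% of peaks of FSK/TNFα alone, whereas the other classes have most of their sites within 1 kb.

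The short CRE was more frequent at forskolin-only sites than in each of the 4 other classes compared. Within 200 bp centered on the peak, TGACG on either strand was found at 914 sites (40.3%, interval 38.3 to 42.3) relative to 25.2% of all FSK/TNFα peaks. The share was 31.7% of peaks shared with FSK and TNFα, 30% of those in all 4 libraries, 20.6% of those shared with TNFα only, and 16.3% of those with FSK/TNFα alone. In windows of the same length 2 kb away from forskolin-only sites it was 6.61%. The palindrome TGACGTCA, which contains TGACG on both strands, was found at 111 sites (4.89%) compared with 2.96% of all peaks and 0.353% of the windows 2 kb away. Its interval of 4.08 to 5.86 overlapped those of peaks shared with FSK and TNFα (4.52%, 3.79 to 5.38) and of peaks in all 4 libraries (4.08%, 3.16 to 5.26). After it, the most frequent octamers that begin with TGACG were TGACGCAC at 57 sites and TGACGCAG at 49. Counting both strands, so that 1 palindrome gives 2 matches, 659 sites had 1 match, 198 had 2, 42 had 3, 11 had 4, and 4 had 5.

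AP-1 and C/EBP sequences were also most frequent at forskolin-only sites, followed by peaks with FSK/TNFα alone. AP-1 is the family of Fos and Jun dimers and C/EBP proteins are central factors of fat cell differentiation. TGACTCA or TGAGTCA was found at 644 forskolin-only sites (28.4%, interval 26.6 to 30.3), at 14.5% of all peaks, at 19.9% of peaks with FSK/TNFα alone, and at 4.86% of peaks shared with FSK and TNFα. The C/EBP consensus TTGCNNAA was found at 433 sites (19.1%, interval 17.5 to 20.8), at 11.3% of all peaks, at 15.5% of peaks with FSK/TNFα alone, and at 5.20% of peaks shared with FSK and TNFα. Both shares followed position. At the 424 promoter sites they were 5.66% and 7.78%, whereas TGACG was found at 42%. At the 1844 distal sites the shares were 33.6% for AP-1, 21.7% for C/EBP, and 39.9% for TGACG. Distal peaks with FSK/TNFα alone had 22.2%, 16.7%, and 14.9% in the same order. Both a short CRE and an AP-1 site were present at 256 forskolin-only sites (11.3%), and neither at 966 (42.6%). Over the 1676 sites with no other peak within 1000 bp, AP-1 was found at 33.5%, C/EBP at 21.4%, and TGACG at 40%.

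**Figure D3:**
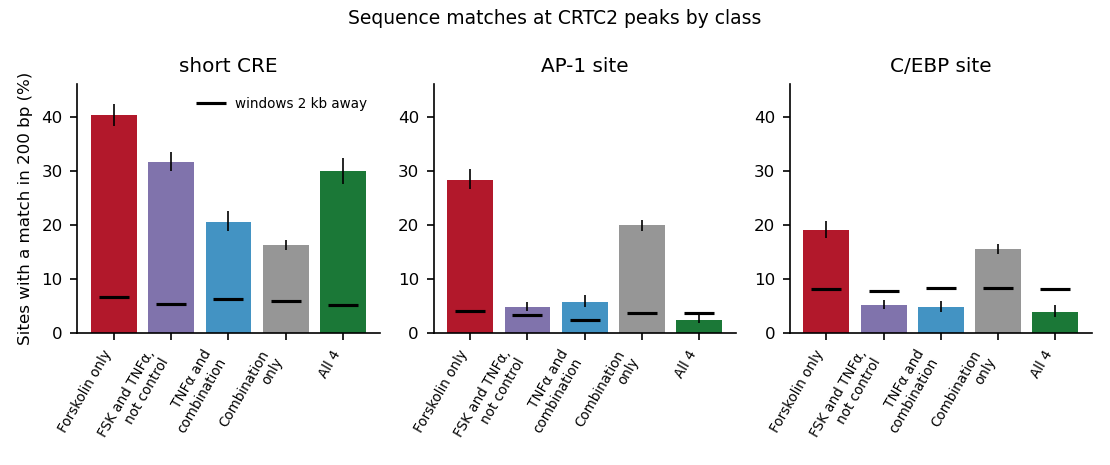
Percent of sites with a short CRE, an AP-1 site, or a C/EBP site in 200 bp, by class, with 95% Wilson intervals; horizontal marks give windows 2 kb away. Forskolin-only sites are highest in each panel, at 40.3%, 28.4%, and 19.1%.

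Further sequences were counted in the same windows. TGATGCAA, which joins ATF4 and C/EBP binding sequences, occurred at 81 sites (3.57%, compared with 1.58% of all peaks), and a glucocorticoid receptor consensus at 84 (3.70%, compared with 1.49%). The NR4A element AAAGGTCA occurred at 59 sites (2.60%, compared with 1.21%). The GC box GGGCGG, common at promoters, occurred at 14.2% of forskolin-only sites, at 7.64% of the 1676 with no other peak within 1000 bp, and at 28.5% of all peaks, and an NF-κB consensus at 8 sites (0.353%, compared with 0.409%). The CCAAT pentamer was found at 21.5% of sites, 21.6% of all peaks, and 26.2% of the windows 2 kb away. A match is a description of the sequence and not evidence of binding.

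TGACG and AP-1 matches were concentrated in the middle of the windows, and for C/EBP this was less clear. Of 1245 TGACG matches, with each palindrome counted as 2, 696 (55.9%) lay within 40 bp of the peak midpoint. So did 355 of 728 AP-1 matches (48.8%) and 251 of 502 C/EBP matches (50%). The count of TGACG matches was 192 in the 20 bp just right of the midpoint and 59 in the leftmost 20 bp. Both counts were 15 in the windows 2 kb away. For C/EBP, the 20 bp just left and right of the midpoint had 73 and 69 matches, and the outermost 20 bp had 30 and 33. In the windows 2 kb away these were 22 and 26, and 16 and 12. A concentration of C/EBP matches beyond that of the windows 2 kb away was not tested.

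**Figure D4:**
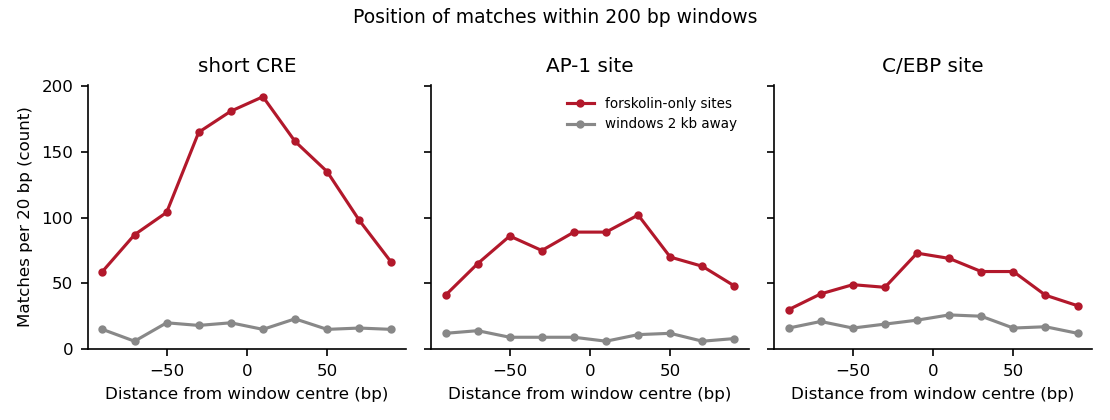
Number of matches in each 20 bp of the 200 bp windows at forskolin-only sites (red) and 2 kb away (grey), by distance from the window center in bp. At the sites the counts are higher near the center for all 3 sequences, reaching 192 for the short CRE. The counts 2 kb away stay at or below 26, and those of C/EBP are also higher near the center.

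The CRE share rose with the strength of CRTC2 binding. The sites were ordered by the sum of their score ranks in both forskolin libraries and divided into 5 groups. TGACG was found at 273 of 454 sites in the strongest group (60.1%, interval 55.6 to 64.5), followed by 44.7%, 37.5%, 31.7%, and 27.4% (interval 23.5 to 31.7). AP-1 went from 32.2% to 24.7% and C/EBP from 16.5% to 21.4% between the same ends. Distal peaks were also described in bands of FSK/TNFα score. For scores of 10 to 14, TGACG was found at 29% of 511 forskolin-only sites (interval 25.2 to 33) and 13.1% (interval 12.1 to 14.2) of 4315 distal peaks of the other classes. For scores of at least 25 the shares were 53.5% of 579 sites (interval 49.5 to 57.6) and 32% of 515 peaks (interval 28.2 to 36.2). AP-1 in the lowest band was found at 29.4% of forskolin-only sites (interval 25.6 to 33.4) and 20.1% of peaks with FSK/TNFα alone (interval 18.8 to 21.4). For scores of at least 25 the AP-1 shares were 37.1% (interval 33.3 to 41.1) and 32.2% (interval 25.1 to 40.2), and for 15 to 24 they were 33.8% (interval 30.5 to 37.3) and 29.7% (interval 26.8 to 32.7), so these intervals overlapped.

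The sites of best rank were near genes of varied function. Outside bins of high input, the first site by summed rank that held a CRE was 3907 bp upstream of Vdr, the vitamin D receptor (chr15:97914456-97914618), with 114.4 tags with FSK and 100.6 with FSK/TNFα. Those tags were 78.99-fold and 46.02-fold over input, and the nearest TNFα peak was 6150 bp away. The sites nearest to Tnfsf15 (8006 bp away) and Trim32 (215776 bp away) ranked higher but held neither a CRE nor an AP-1 site. With FSK and FSK/TNFα, they had 171 and 165 tags at the Tnfsf15 site and 173 and 115 at the Trim32 site. Their input values were 17.5 and 19.9 normalized tags relative to a median of 1.47.

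The NR4A orphan receptors, immediate early genes induced by cAMP, had 6 sites. At Nr4a1 the site covered the start site (chr15:101266744-101266906, midpoint 21 bp upstream) and had 104 tags with FSK and 62.9 with FSK/TNFα, a log2 ratio of -0.73. Its FSK peak was 566-fold over input, and no TNFα peak lay within 12 kb. Another 2 sites stood 7.8 and 7.3 kb upstream of Nr4a1, with 26.2 and 11 tags with FSK and 32.1 and 18.9 with FSK/TNFα. Both flanked a control peak of 16.9 tags that lay between them, and TNFα peaks were 86 and 152 bp away. Nr4a3 had a site 1695 bp upstream (chr4:48043377-48043539, 63.9 and 68.2 tags, TNFα peak 366 bp away) and another at its promoter (28.0 and 38.4 tags). The Nr4a2 promoter site had 12.2 tags with FSK and 16.0 with FSK/TNFα.

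Sik1, Pde10a, Per1, and Crem were further cAMP targets with strong sites. Sik1 encodes a salt-inducible kinase that phosphorylates CRTC2, and its promoter site (chr17:31855897-31856059) had 52.3 tags with FSK and 61.3 with FSK/TNFα. A TNFα peak of 13.2 tags stood 139 bp away. Pde10a encodes a phosphodiesterase that degrades cyclic nucleotides and had 5 sites, of which the promoter site (chr17:8524980-8525142) held 65.1 and 50 tags and no H3AcK27 region in any library. None of the 5 had a TNFα peak within 100 kb. The clock gene Per1 had a site (chr11:69097130-69097292) with 70.0 and 69.5 tags, and its nearest TNFα peak was 1385 bp away. Crem, which encodes a CREB family member with a cAMP-inducible repressor form, had 3 sites, the strongest with 38.3 and 24.5 tags and a TNFα peak 126 bp away.

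Among 40 known cAMP and CREB target genes, 23 (57.5%) were the nearest protein-coding gene of at least 1 site within 50 kb, compared with 6.32% of the 21924 protein-coding genes. The 36 sites at these genes had a median of 17.6 tags with FSK and 17.9 with FSK/TNFα, and 22 held the short CRE, 2 an AP-1 site, and 8 lay at promoters. For the same 40 genes, 24 had a peak of FSK/TNFα alone and 14 a peak shared with FSK and TNFα, classes nearest to 14.4% and 11.2% of all genes. A peak in all 4 libraries was found for 13 and one shared with TNFα only for 10, classes nearest to 6.04% and 7.81% of all genes. The spacing of genes, which affects how many sites a gene is nearest to, was not accounted for. This and the other gene lists were chosen with earlier results of these data known, so their shares are descriptions and not tests.

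The lists of cAMP machinery and fat cell genes had lower shares than the cAMP targets, beside 6.32% of all genes. Of 36 genes for cAMP and PKA components, 3 (8.33%) had a site: Akap13, Prkacb, and Stk11, each with 8.49 to 14 tags. Of 25 genes for lipolysis and thermogenesis, only Abhd5 had one, with 11.6 tags with FSK and 8.17 with FSK/TNFα. Among 26 adipogenic factors there were 5 (19.2%): Ebf1, Klf4, Klf9, Pparg, and Rxra. Among 25 genes of adipocyte identity, Adipoq, Cav1, and Cd36 had sites, and the Adipoq site had 11 tags with FSK and 5.34 with FSK/TNFα. Of 10 fibroblast genes, Col3a1 had 1 site. The label of the cells was read against its markers. In the H3AcK27 libraries, 2 or 3 of 8 adipocyte markers had a region over a start site, and Adipoq, Plin1, Cd36, Cebpa, and Cidec had none in any library. The same count was 5 or 6 of 6 for fibroblast markers and 1 or 2 of 5 for macrophage markers. Most adipocyte markers thus had no region over a start site in cells labelled adipocyte, which the study describes as days into differentiation. Regions elsewhere at these genes were not counted. The forskolin-only sites nearest to Pparg (261 bp from a start site), Adipoq (13164 bp), and Cd36 (11933 bp) overlapped an H3AcK27 region in every library.

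Inflammatory genes also had forskolin-only sites. Of 30 genes of the NF-κB and cytokine list, 14 (46.7%) had 20 sites within 50 kb, compared with the same 6.32% of all genes. Peaks of FSK/TNFα alone were found for 18 of the 30 and peaks in all 4 libraries for 11. Peaks shared with TNFα only were found for 9 and those shared with FSK and TNFα for 6. These classes were nearest to 14.4%, 6.04%, 7.81%, and 11.2% of all genes, so a high share was not particular to forskolin-only sites. The list was chosen with earlier results of these data known. The median log2 ratio of FSK/TNFα to FSK at the 20 sites was 0.39, with 13 above 0, relative to -0.04 at all sites and -0.01 at the 36 sites of cAMP targets. The stronger of 2 sites near Lif, which encodes a cytokine of the interleukin-6 family, had 23.7 tags with FSK and 54.7 with FSK/TNFα (chr11:4308747-4308909, log2 ratio 1.21). The site 9153 bp upstream of Tnip1, which encodes a partner of the NF-κB inhibitor A20, had 9.73 and 24.8 tags (log2 ratio 1.35). The stronger site near Nfkbia, which encodes the inhibitor IκBα, had 17.6 and 31.8. The site 28596 bp upstream of the chemokine gene Ccl2 had 22.5 and 32.4. The other 7 sites were below 0, namely 2 near Ptges, 2 near Bcl3, and 1 each near Irf1, Nfkb1, and Socs3. The Bcl3 sites had 19.5 and 20.7 tags with FSK and 13.5 and 10.4 with FSK/TNFα. Of the 20 sites, 10 had a control or TNFα peak within 1000 bp, and so did 592 of all 2268.

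p65 was found at few forskolin-only sites, and mostly with FSK/TNFα. Of the 2268 sites, 21 overlapped a p65 peak of the FSK library (0.926%), 75 one of the TNFα library (3.31%), 192 one of the FSK/TNFα library (8.47%, interval 7.39 to 9.68), and 0 one of the control library. For all FSK/TNFα CRTC2 peaks the shares were 0.600%, 1.81%, 3.36%, and 0.0776% in the same order. The lists differed in length. The 192 sites met 4.55% of the 4221 p65 peaks of the FSK/TNFα library. The 75 sites met 3.12% of the 2404 peaks with TNFα, and the 21 met 0.707% of the 2969 peaks with FSK. The control list held only 214 peaks. At 141 sites the p65 peak was called with FSK/TNFα only. p65 overlap rose with CRTC2 strength, from 2.87% in the weakest to 13.9% in the strongest of the 5 groups. Among distal peaks with scores of at least 25, it was 16.4% of 579 forskolin-only sites (interval 13.6 to 19.6) and 16.8% (interval 11.5 to 23.8) of 143 peaks with FSK/TNFα alone. For scores of 15 to 24 the shares were 9.15% and 8.31%. The intervals of these classes overlapped in both bands. Over all other classes together, p65 was found at 10.5% of 515 distal peaks with scores of at least 25 (interval 8.13 to 13.4).

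Sites with p65 differed from the other forskolin-only sites in CRTC2 tags and in sequence. The 192 sites had a median of 15.8 tags with FSK and 18.2 with FSK/TNFα, and the other 2076 had 13.4 and 13.2. The log2 ratio had a median of 0.20 (quartiles -0.20 and 0.56) and was above 0 at 123 sites (64.1%), compared with -0.05 (quartiles -0.43 and 0.34) and 44.7% without p65. The other CRTC2 peaks shared with FSK had medians of 0.17 with p65 (74 peaks, 56.8% above 0) and -0.06 without (4022 peaks, 44.9% above 0). C/EBP sequences were found at 30.2% (interval 24.2 to 37) and 18.1% (interval 16.5 to 19.8), and TGACG at 30.7% (interval 24.6 to 37.6) and 41.2% (interval 39.1 to 43.3). AP-1 shares were 28.6% and 28.4%. Of the 192 sites, 12 were at promoters (6.25%).

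Tags of both proteins are given for single sites. The CRTC2 site nearest to Dnajb6 (chr5:29864372-29864534) lay 99978 bp from a start site and had 49.3 tags with FSK and 67.0 with FSK/TNFα. Over it lay p65 peaks of 15.2 tags with FSK, 19.3 with TNFα, and 28.3 with FSK/TNFα. The site 5846 bp upstream of an Akap2 start site (chr4:57839320-57839482) had 51.7 and 55.3 CRTC2 tags and a p65 peak of 37.1 tags with FSK/TNFα only. At the site 28596 bp upstream of Ccl2, p65 had 43.5 tags with TNFα and 51.7 with FSK/TNFα. The sites near Sfta2, Smim3, and Osbp2 had p65 peaks of 15.1, 38.6, and 15.6 tags with FSK/TNFα only. A TNFα CRTC2 peak stood 5 bp from the Sfta2 site, 45 bp from the Dnajb6 site, and 87 bp from the Akap2 site. A control CRTC2 peak stood 359 bp from the Osbp2 site. The nearest TNFα CRTC2 peak was 4804 bp from the Ccl2 site and 41696 bp from the Smim3 site.

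H3AcK27 was already present at most sites without forskolin. A control region covered 90.3% of the sites, compared with 84.1% of all FSK/TNFα peaks. By class it was 99% of peaks shared with FSK and TNFα, 99% of those in all 4 libraries, 96.9% of those shared with TNFα only, and 65.5% of those with FSK/TNFα alone. For the TNFα library the shares were 91.5% and 84.9%, for FSK 90.4% and 80.8%, and for FSK/TNFα 89.5% and 82.6%. When only regions of at least 8-fold over input were kept, the shares for TNFα were 65.5% of the sites and 66.6% of all peaks. All 4 libraries had a region at 1862 sites (82.1%) and none at 76 (3.35%). A region in both forskolin libraries only was found at 37 sites (1.63%, compared with 0.748% of all peaks), and one in control and TNFα only at 48 (2.12%, compared with 2.12%). The FSK library held 9832884 tags and the other H3AcK27 libraries 25729060 to 27966129. The lists held 52321 regions for control, 38684 for FSK, 49754 for TNFα, and 42227 for FSK/TNFα. With each list cut to 38684 regions, the shares of sites were 78.5%, 90.4%, 80.9%, and 87.8% in the same order. The shares of all peaks were then 74.3%, 80.8%, 74.7%, and 80.8%.

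**Figure D5:**
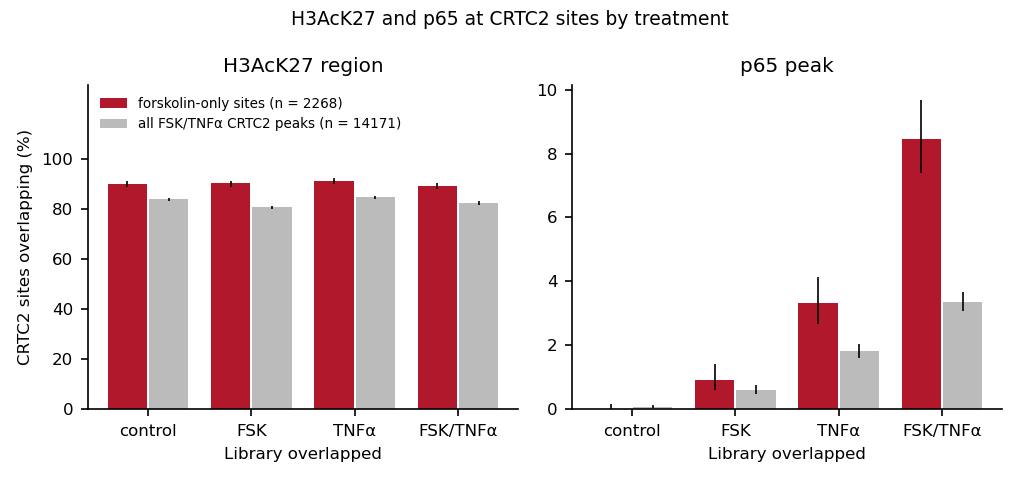
Percent of forskolin-only sites (red) and of all FSK/TNFα CRTC2 peaks (grey) that overlap an H3AcK27 region or a p65 peak of each library, with 95% Wilson intervals. H3AcK27 shares lie between 80.8% and 91.5% under every treatment, and p65 shares are highest with FSK/TNFα.

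H3AcK27 density was higher with forskolin in the regions over sites that had a region in all 4 libraries. Density is that of the whole called region over a site, with median widths of 3831 to 4162 bp and bounds that differ between libraries. Sites in the same region share its value, so counts of sites below are not counts of separate regions. The median over 1862 sites was 65.1 normalized tags per kb for control and 69.4 for TNFα, and 78.2 for FSK and 73.5 for FSK/TNFα. The log2 ratio of FSK to control had a median of 0.29 (quartiles 0.00 and 0.58) and was above 0 at 1405 sites (75.5%), relative to a median of 0.10 for all FSK/TNFα peaks and 0.08 for those shared with FSK and TNFα. The ratio of FSK/TNFα to TNFα had a median of 0.09 at forskolin-only sites and 0.01 at all peaks, and that of TNFα to control 0.09 and 0.11. The input moved with these ratios: in the same regions its median was 8.52 tags per kb for the FSK library and 6.16 for control. Its part in the difference was not tested.

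By CRTC2 score rank, Nr4a1 was the first site with H3AcK27 in the forskolin libraries only, and its H3AcK27 density was 34.7 tags per kb with FSK and 35.5 with FSK/TNFα. Distal sites of the same kind lay near Slc1a3 (104 and 55.7 tags per kb), Chd7 (94.1 and 65.7), Gap43 (42.2 and 36.8), and Nrip1 (31.8 and 38.7). Of the 37 sites, 17 held TGACG (45.9%, interval 31 to 61.6) and 2 were at promoters. At Per1 the density was 115 for control, 237 for FSK, 116 for TNFα, and 142 for FSK/TNFα. At the stronger Socs3 site, near the gene of an inhibitor of cytokine signaling, it was 156, 123, 173, and 151 in the same order. The weaker Socs3 site had 64.8, 123, 49.5, and 151, the same as the stronger site in both forskolin libraries. These are densities of whole regions with bounds that differ between libraries, so they do not give the direction at a single site.

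Some genes were nearest to several sites. In all, 1752 genes were nearest to a site, 1387 of them to 1, 365 to at least 2, and 30 to at least 4. The genes with most were 1600014C23Rik, Akap2, Adgrl2, and Serp2, with 6 each, and Pde10a, Mbnl1, Hipk2, Lmo4, Acsl4, and Il1r1, with 5 each. The 6 sites near Akap2 lay between 50 and 13668 bp from a start site, whereas those near Adgrl2 were 182099 to 730308 bp away. When sites with midpoints within 10000 bp of each other were joined, 346 sites fell into 162 groups, and the group with most was the 5 sites in introns of Hipk2, a kinase gene, over 11547 bp (chr6:38824040-38835586). Their tags were 18.3 to 26.8 with FSK and 19.2 to 59.7 with FSK/TNFα. None held TGACG, 1 held an AP-1 site, and 3 overlapped a p65 peak with FSK/TNFα. Il1r1, the interleukin-1 receptor gene, had 5 sites with 9.12 to 24.2 tags with FSK/TNFα.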

How the data were processed

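ChIP-seq libraries of CRTC2, p65, and H3AcK27 under 4 treatments, with 2 inputs, came from 14 samples, and the 12 deposited peak lists were used. The submitters' processing notes name STAR, HOMER, and mm10, with versions not given in the sources used here. Per the file headers, libraries held 9832884 to 31807394 tags, and HOMER kept peaks at an FDR of 0.001 that were at least 4-fold over input. CRTC2 and p65 candidates were also filtered at 4-fold over a local region of 10000 bp. The deposited signal is the tag count normalized to 10000000 tags. For CRTC2 and p65, the score in the deposited lists counts tags with a limit per position. The deposited fold values and p-values compare each peak with its input or local region, and the p-values were not used here.

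Lists were intersected at 1 bp or more in Python 3.11.15 with numpy 2.4.6, pandas 2.3.3, scipy 1.17.1, and pysam 0.24.0. The code was tested on simulated data. Start sites came from GENCODE M21, and sequences from the GRCm38 RefSeq assembly. Motifs were searched on both strands in 200 bp, and the NF-κB and glucocorticoid receptor consensus sequences are named only. Named genes were those nearest to the 20 sites of best summed score rank outside 2 Mb bins whose input was over 5 times the median, the 10 genes nearest to most sites, list genes within 50 kb, and the 5 strongest sites with H3AcK27 in the forskolin libraries only and with p65. Edge examples, the distance for joining sites, and genes singled out for a contrast were chosen after their values were seen. The members and lists were chosen with earlier results of these data known. Alternatives changed the overlap, distance, fold, list length, promoter extent, motif window, and starting list.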

Additional observations from a re-analysis of the deposited data

Results flagged for a closer look

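Signal in the inputs marked 7 forskolin-only sites. They lay in 2 Mb bins where the input held over 5 times the median number of tags, 6 of them in 1 bin of chromosome 10 at 18.4 times the median in the untreated input and 18.6 times in the FSK input. Of these sites, 4 were among the 10 highest scores, all near Otogl, with 673.4, 593.3, 296.2, and 239.6 tags with FSK/TNFα and input values of 28.6 to 65 normalized tags relative to a median of 1.47 at all sites. The part of the high input in these tags was not tested. The other 2261 sites gave a Pearson's r of 0.65 between both forskolin libraries.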

How the results depend on the processing

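Each of 13 results was recomputed under the alternatives that apply to it, 92 values in all, of which 50 stayed within the 95% interval of a share or median or within 1.5 times the number of sites, 20 were higher, and 22 were lower. With midpoints within 100 bp in place of overlap, there were 1961 sites and the median of tags with FSK/TNFα was 14.1. With no control or TNFα peak within 1000 bp, there were 1676 sites, promoters made up 6.8%, AP-1 33.5%, C/EBP 21.4%, and H3AcK27 of control, FSK, TNFα, and FSK/TNFα 87.5%, 88.1%, 88.8%, and 86.4%. With at least 8-fold over input, there were 1150 sites, with median tags of 15.2 (FSK) and 15.4 (FSK/TNFα), promoters at 16.2%, TGACG 45%, AP-1 32.4%, H3AcK27 of control 89% and of FSK/TNFα 90.9%, and p65 9.91%. With the CRTC2 lists cut to the shortest (5188 peaks), 1109 sites had median tags of 20.1 and 20.4, promoters at 26.1%, TGACG 51%, TGACGTCA 6.67%, C/EBP 15.9%, H3AcK27 93.8%, 95%, 95%, and 94.6%, and p65 11.8%. A promoter of 5000 bp upstream and 1000 bp downstream gave 28.7%, compared with 53.2% of all peaks. A motif window of 100 bp gave TGACG 28%, TGACGTCA 3.44%, AP-1 16.8%, and C/EBP 11.6%, compared with 15.2%, 1.84%, 8.26%, and 6.23% of all peaks. H3AcK27 regions of at least 8-fold gave 63.4%, 56.1%, 65.5%, and 51%, compared with 63%, 45.1%, 66.6%, and 48% of all peaks, so the order of sites and all peaks turned for TNFα. H3AcK27 lists cut to the shortest (38684 regions) gave 78.5% for control, 80.9% for TNFα, and 87.8% for FSK/TNFα, compared with 74.3%, 74.7%, and 80.8% of all peaks. The FSK list is the shortest and stayed at 90.4%, compared with 80.8% of all peaks. Midpoints within 100 bp gave p65 6.39%, compared with 2.59% of all peaks. The shorter window, the 8-fold limits, and the shorter H3AcK27 lists hold fewer matches or sites by construction. Cutting the CRTC2 lists differs, because it also took the TNFα list used for exclusion from 19527 to 5188 peaks. Sites kept there can overlap a weaker TNFα peak. Other causes were not tested. Starting from the FSK list, and leaving out bins of high input, moved none of these results.

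No paired analysis was possible because each target and treatment had 1 library. Counts of calls depend on depth and on the input used, and tags at positions without a called peak are not analysed here.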
